A study of Homo sapiens with 2 samples.

Results

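Cells remove damaged or mispaired bases by several routes that share a common plan, in which a damaged or wrong stretch is recognised, cut out and filled in from the intact strand. Nucleotide excision repair takes out bulky and platinum adducts, base excision repair single altered bases, and mismatch repair copying errors. Translesion polymerases do not remove damage but copy past it, which lets replication finish at the price of errors. The 35 genes described here act in these routes: 14 in nucleotide excision, 8 in base excision, 6 in mismatch repair and 7 in translesion synthesis. The list names them by function and uses no binding value, and they are 35 of 20037 protein-coding genes of the RefSeq table on GRCh38.p14.

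The binding data come from CUT&Tag, in which an antibody directs a transposase to its target, so that reads pile up where the target sits on DNA. The study ran it for EWS-FLI, the fusion of EWSR1 and the ETS factor FLI1, in TC32, an established Ewing sarcoma line. A single library was made from TC32 cells given siEWS-FLI and another from TC32 cells given siNEG, a label that is not spelled out. With 1 library in each group no difference below has a replicate check and none carries a p-value. For each gene, called summits were taken within 1 kb of either end of the gene and within 50 kb of either end. Strength is the summit pileup, the number of raw extended reads over the summit base, computed from the deposited fold and p-value and not scaled between libraries. Intervals in brackets are 95% intervals, exact Poisson for a pileup, exact Clopper-Pearson for a share and conditional binomial for a ratio, and cover counting error only. The reads are PCR products without molecular identifiers, so real errors are wider.

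The siEWS-FLI list was the sparser, with 6370 intervals against 16284 with siNEG. Its background was 0.239 reads per base against 0.348, a ratio of 0.687. An uncalled site is below the caller's threshold, which left up to 3 reads uncalled at the siEWS-FLI library background and more where the local background was higher. As a check of the line, a siNEG summit was called within 50 kb of 6 of 6 Ewing sarcoma marker genes, and of 0 of 3 hepatocyte, 2 of 3 blood and 3 of 3 epithelial markers. That window therefore also took in sites near genes of other cell types. Within 1 kb the counts were 2 of the 6 Ewing markers and none of the others. Over all protein-coding genes a siNEG summit was called within 50 kb of 71.8% and within 1 kb of 34.1%. With lists this short, neither window tells the line from other cell types.

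Repair genes carried siNEG binding at their ends more often than protein-coding genes as a whole. A siNEG summit lay within 1 kb of an end of 25 of the 35 genes (71.4%, 53.7 to 85.4), against 34.1% of all protein-coding genes. With siEWS-FLI 5 of the 35 had one (14.3%, 4.81 to 30.3), against 12.3% of all genes. With the siNEG list cut by strength to as many intervals as the siEWS-FLI list, 15 of the 35 had a siNEG summit within 1 kb (42.9%, 26.3 to 60.6), against 20.4% of all genes. Within 50 kb the counts were 33 with siNEG (94.3%, 80.8 to 99.3; all genes 71.8%) and 17 with siEWS-FLI (48.6%, 31.4 to 66.0; all genes 44.5%), or 6 with siEWS-FLI when each summit counted for its nearest gene alone. Of the 25 genes with a siNEG summit at an end, the same 5 had a siEWS-FLI summit there (20.0%, 6.83 to 40.7), against 32.7% of all genes with such a siNEG summit. Of the 33 bound within 50 kb in the siNEG library, 16 had a siEWS-FLI summit (48.5%, 30.8 to 66.5; all genes 55.9%). The repair genes thus stood above the background in how many had a siNEG summit, while the share that also had a siEWS-FLI summit lay within counting error of the background in both windows. Their gene-end sites were of ordinary strength, with a median of 11 reads (range 5 to 162), against 12 over all genes.

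**Figure D1:**
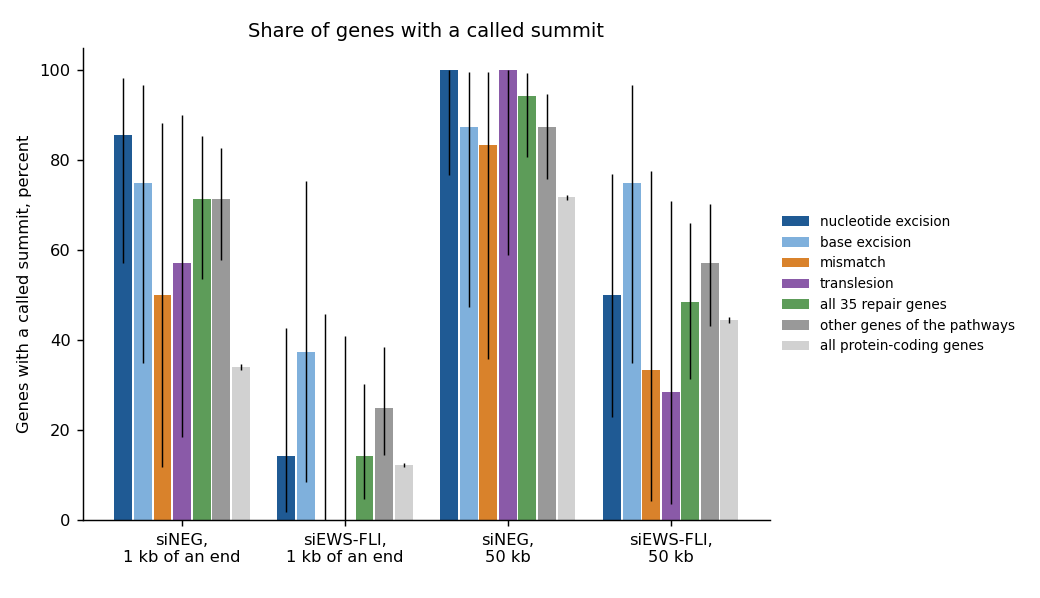
Percent of genes with a called summit (vertical axis) within 1 kb or 50 kb of a gene end in each library, for the 4 repair routes, all 35 repair genes, 56 other genes of the same pathways and all protein-coding genes. Bars start at 0 and lines are exact 95% binomial intervals. At gene ends 71.4% of the repair genes had a siNEG summit, against 34.1% of all genes, and 14.3% had a siEWS-FLI summit, against 12.3%.

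Measured from transcription starts, the summits lay close. RefSeq start positions were at hand for 34 of the 35 genes, all but POLB. A siNEG summit lay within 1 kb of a listed start in 27 of the 34 (79.4%, 62.1 to 91.3), against 37.0% of genes with listed starts. A siEWS-FLI summit did in 6 (17.6%, 6.76 to 34.5), against 13.6%. All 6 were among the 27 (22.2%, 8.62 to 42.3; all genes 33.6%). The strongest siNEG summit at a start was within 300 bases of it in all 27 genes, against 86.0% of all genes with a start site. The median distance was 129 bases (23 to 292), against 136 (0 to 999), and 18 of the 27 were upstream (66.7%; all genes 68.9%). The median distance and the side were thus those of start sites in general, while the share within 300 bases was higher.

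**Figure D2:**
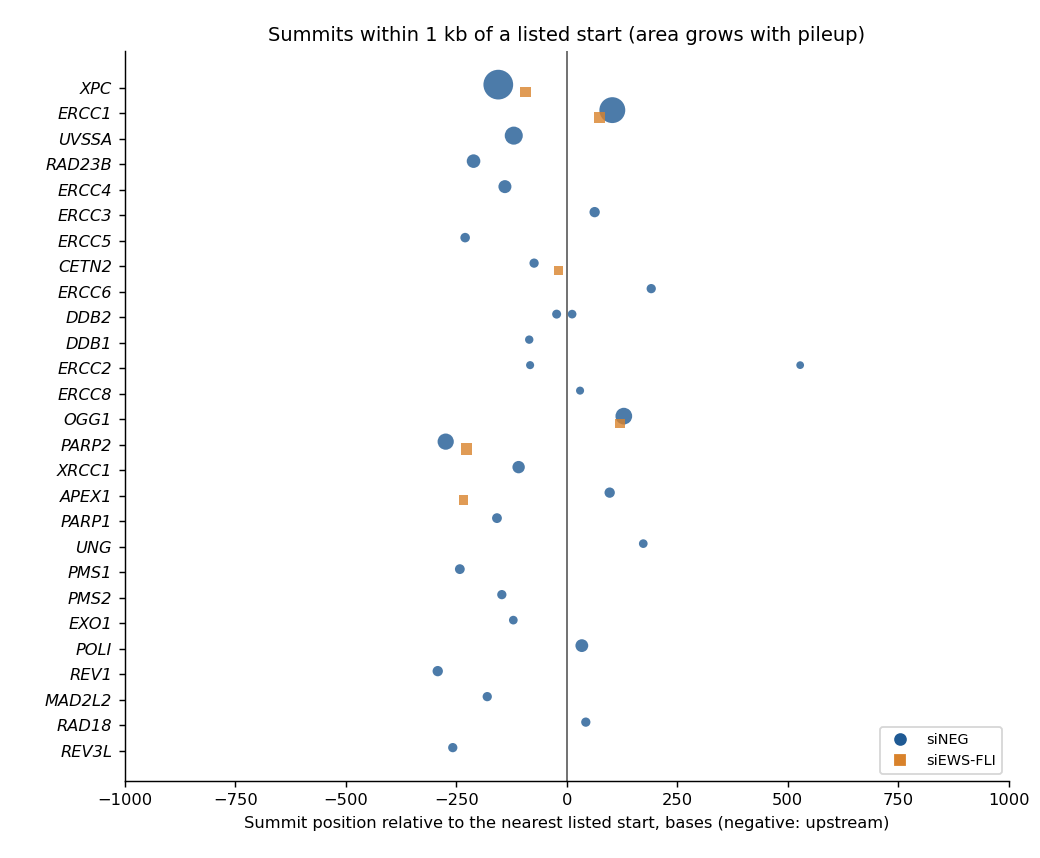
Position of each called summit relative to the nearest listed start (horizontal axis, bases, negative upstream) for the 27 repair genes with a siNEG summit there. Circles are siNEG and squares siEWS-FLI, and marker area grows with pileup. The strongest siNEG summit of each gene lies between 292 bases upstream and 191 bases downstream.

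The start sequences of 8 genes are shown: XPC holds the strongest site, UVSSA the strongest one that was called with siNEG alone, PARP2 the highest siEWS-FLI pileup at a start, and ERCC1, OGG1, POLI, ERCC3 and RAD18 are the genes whose windows hold the ETS sequence CCGGAAGT. Each runs from 200 bases before to 30 bases from the start on, on the gene's own strand, from RefSeq on GRCh38.p14. The siNEG summits of XPC and UVSSA fall inside the stretch shown, that of PARP2 lies before it and those of the other 5 genes lie after it. Capitals mark GGAA or its reverse complement TTCC, the core that ETS factors contact, and the whole of CCGGAAGT or its reverse complement ACTTCCGG. Positions are chr3:14178572-14178801 (minus) for XPC, chr4:1347008-1347237 (plus) for UVSSA, chr14:20343435-20343664 (plus) for PARP2 and chr19:45423888-45424117 (minus) for ERCC1. They are chr3:9749752-9749981 (plus) for OGG1, chr18:54269374-54269603 (plus) for POLI, chr2:127294115-127294344 (minus) for ERCC3 and chr3:8963443-8963672 (minus) for RAD18.
XPC: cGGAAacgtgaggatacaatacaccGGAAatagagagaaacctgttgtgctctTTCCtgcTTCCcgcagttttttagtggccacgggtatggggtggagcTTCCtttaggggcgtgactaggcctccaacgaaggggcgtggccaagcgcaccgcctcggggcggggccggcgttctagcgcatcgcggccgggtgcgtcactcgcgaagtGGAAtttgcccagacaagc
UVSSA: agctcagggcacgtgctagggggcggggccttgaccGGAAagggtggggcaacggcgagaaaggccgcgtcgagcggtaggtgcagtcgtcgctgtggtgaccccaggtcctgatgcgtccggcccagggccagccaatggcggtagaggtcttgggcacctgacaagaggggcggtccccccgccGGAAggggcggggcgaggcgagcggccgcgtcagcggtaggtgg
PARP2: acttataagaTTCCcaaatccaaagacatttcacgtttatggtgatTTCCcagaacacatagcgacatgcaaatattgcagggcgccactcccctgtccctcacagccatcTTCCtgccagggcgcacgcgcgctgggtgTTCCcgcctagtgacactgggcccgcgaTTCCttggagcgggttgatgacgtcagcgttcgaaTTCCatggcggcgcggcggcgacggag
ERCC1: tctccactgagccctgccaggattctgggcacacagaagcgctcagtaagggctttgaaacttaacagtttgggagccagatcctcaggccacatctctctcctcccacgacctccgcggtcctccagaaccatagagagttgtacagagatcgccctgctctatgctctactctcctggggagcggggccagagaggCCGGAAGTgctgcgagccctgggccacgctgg
OGG1: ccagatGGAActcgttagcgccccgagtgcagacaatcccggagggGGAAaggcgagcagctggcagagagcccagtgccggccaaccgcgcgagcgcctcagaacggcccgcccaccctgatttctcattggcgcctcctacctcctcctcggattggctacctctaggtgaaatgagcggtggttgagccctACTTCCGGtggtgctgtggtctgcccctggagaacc
POLI: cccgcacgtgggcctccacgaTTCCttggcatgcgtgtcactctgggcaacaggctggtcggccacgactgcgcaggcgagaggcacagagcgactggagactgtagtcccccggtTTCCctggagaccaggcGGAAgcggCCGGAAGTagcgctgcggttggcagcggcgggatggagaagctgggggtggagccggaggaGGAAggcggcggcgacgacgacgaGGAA
ERCC3: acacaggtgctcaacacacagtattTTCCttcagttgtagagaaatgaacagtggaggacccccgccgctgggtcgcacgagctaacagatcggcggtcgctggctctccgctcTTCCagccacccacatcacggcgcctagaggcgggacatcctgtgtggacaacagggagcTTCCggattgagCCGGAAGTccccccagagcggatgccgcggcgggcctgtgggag
RAD18: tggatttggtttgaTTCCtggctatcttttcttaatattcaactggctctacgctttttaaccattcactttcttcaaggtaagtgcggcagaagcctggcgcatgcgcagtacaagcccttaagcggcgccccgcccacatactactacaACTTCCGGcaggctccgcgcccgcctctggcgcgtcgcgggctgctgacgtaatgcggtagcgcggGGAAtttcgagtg

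Windows of 300 bases, from 250 before to 50 after each listed start, were searched on both strands. CCGGAAGT was found in 5 of 32 member windows that a siNEG interval overlapped (15.6%) and in 0 of 16 that none overlapped. Over all 22199 windows it was found in 5.34%, in 15.6% of those with a siNEG interval and in 1.17% of those without. The share at siNEG-bound starts of repair genes was thus that of siNEG-bound starts as a whole. Read along the gene, the sequence begins 2 bases before the listed start in ERCC1, 6 in OGG1, 14 in ERCC3, 49 in RAD18 and 59 in POLI. The siNEG summit was 73 to 131 bases from its middle in these 5 genes, and ERCC1 and OGG1 also had a siEWS-FLI summit. XPC, with the highest pileup, has no CCGGAAGT in its window, and 6 copies of the shorter core among the 230 bases shown. The core GGAA, which overlaps the longer sequence, was in 32 of 32 member windows with a siNEG interval, and in 95.1% of all windows. A tandem pair of cores, GGAAGGAA, is 2 copies of the repeat in the microsatellites EWS-FLI is known to bind. It was in 0 of the 32, against 3.20% of all windows with a siNEG interval and 3.70% of all windows. The CCAAT box, which binds NF-Y, was in 16 of 32 (50%) and in 1 of 16 without a siNEG interval (6.25%), against 42% and 31.7% of all windows with and without such an interval. The GC box GGGCGG, which binds SP1, was in 26 of 32 (81.2%) and 11 of 16 (68.8%), against 77.1% of all windows with a siNEG interval and 47.8% without. Several genes have more than 1 listed start and some of their windows overlap, so these counts are not of independent sequences.

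Among nucleotide excision genes, 12 of 14 had a siNEG summit at a gene end (57.2 to 98.2%) and 2, XPC and CETN2, a siEWS-FLI summit there (1.78 to 42.8%). Over all genes the shares, for comparison here and with the routes below, were 34.1% and 12.3%. XPC encodes the sensor that finds distorted DNA before repair begins. Its site, chr3:14178482-14178954, had 162 siNEG reads (138 to 189) and 15 siEWS-FLI reads (8.40 to 24.7), a ratio of 0.0926 (0.0506 to 0.157), or 10.8-fold lower in raw reads. It was the strongest of all start and gene-end sites of the repair genes, and 98.7% of the 6836 genes with a siNEG gene-end summit had a lower pileup. The summit, 155 bases upstream of the XPC start, lay 61 bases from the end of LSM3, so the site cannot be given to XPC alone. CETN2 encodes centrin 2, which binds XPC. It had 9 reads in each library (4.12 to 17.1) 74 bases upstream of its start with siNEG, a ratio of 1 (0.352 to 2.84) that counting error leaves wide. NSDHL lay 232 bases from the siNEG summit and 287 bases from the siEWS-FLI one, so this site cannot be given to CETN2 alone. The gene for the other partner of XPC, RAD23B, had 28 reads with siNEG (18.6 to 40.5), 211 bases upstream of its start. It was not called with siEWS-FLI, with a limit of 6 reads at the siNEG local background. The sites at the starts of XPC and its partners thus differed in what was called with siEWS-FLI. They ranged from a strong site of lower pileup to a weak site of equal pileup and a site called with siNEG alone.

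ERCC1 and ERCC4 encode the nuclease that cuts on the 5′ side of the damage. The strongest ERCC1 site within 50 kb, chr19:45423554-45424548, had 121 siNEG reads (100 to 145) and 16 siEWS-FLI reads (9.15 to 26), a ratio of 0.132 (0.0732 to 0.224). The RefSeq span of ERCC1 is long, and this site lies 16.5 kb inside it from the nearer end, so a rule on gene ends does not give it to the gene's end. It lies at a start of the gene all the same: the siNEG summit was 103 bases, and the siEWS-FLI summit 75 bases, downstream of a listed ERCC1 start, the one whose sequence is shown above. The site at an end of ERCC1 was another, of 28 siNEG reads and 865 bases away, which lies 108 bases from PPP1R13L and was not called with siEWS-FLI. ERCC4 had 25 reads with siNEG (16.2 to 36.9), 140 bases upstream of its start, and no siEWS-FLI call, with a limit of 6 reads. ERCC5, the nuclease of the 3′ side, had 10 siNEG reads 230 bases upstream of its start.

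The genes of transcription-coupled repair, which starts at stalled RNA polymerase, had siNEG calls alone. UVSSA, which stabilises the stalled complex, had the strongest of them, 55 reads (41.4 to 71.6) at chr4:1346897-1347456, 120 bases upstream of a listed start that is 5.20 kb from the nearer end of the gene's span. With siEWS-FLI a pileup of up to 8 would have been left uncalled at the siNEG local background, a ratio of up to 0.145. At the siEWS-FLI library background the limit was 3 reads. ERCC6, the remodeller CSB, had 9 reads and ERCC8, the ubiquitin ligase subunit CSA, 5. The ERCC8 summit was 165 bases from NDUFAF2. Helicases of TFIIH, which open the damaged stretch, had 13 reads at ERCC3 and 5 at ERCC2. The ultraviolet damage sensor had 8 reads at DDB2 and 6 at DDB1, the latter 38 bases from TKFC. At these 6 sites the limit for a siEWS-FLI call, at the siNEG local background, was 3 to 5 reads. A difference at the weakest of them was therefore not detectable at this depth. XPA, which checks the damaged strand, had no summit at its ends, and its strongest site within 50 kb, 43 and 9 reads, was 190 bases from TSTD2 and 20.8 kb from XPA.

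**Figure D3:**
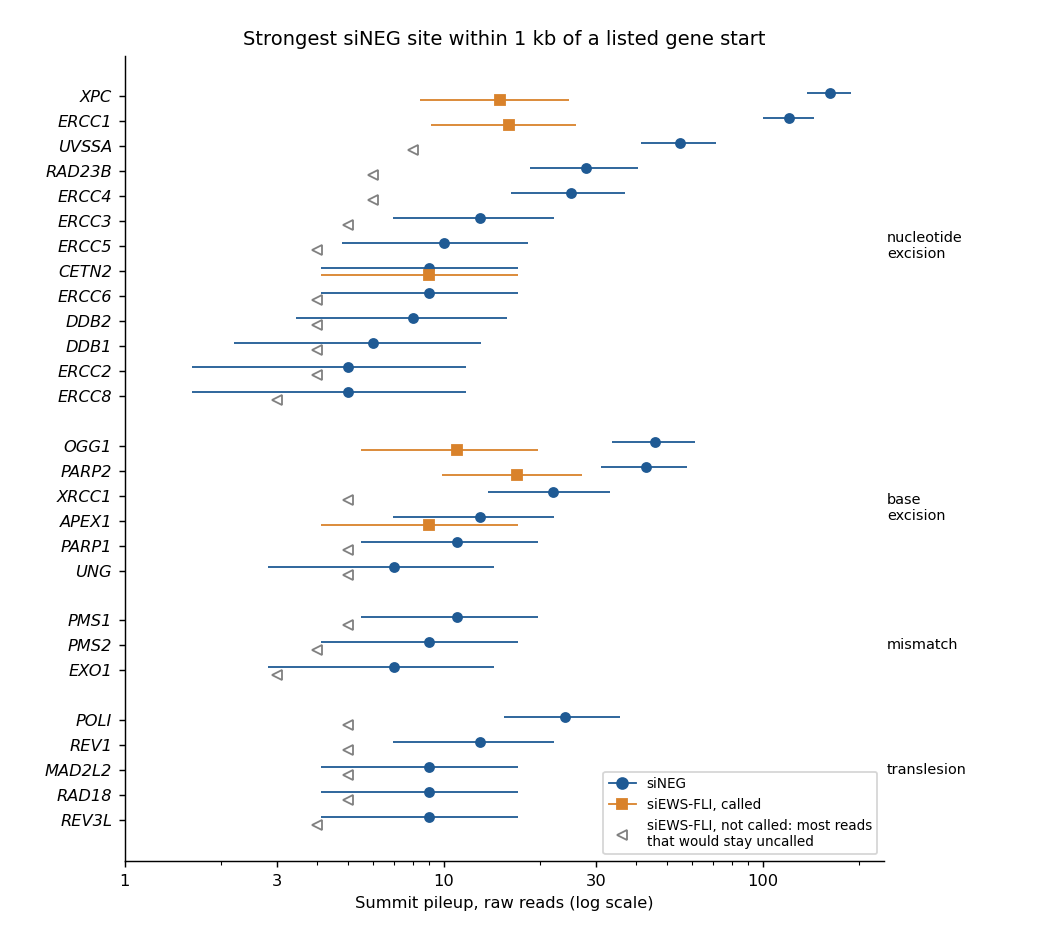
Summit pileup in raw reads (horizontal log axis) at the strongest siNEG site within 1 kb of a listed start, for 27 repair genes grouped by route. Circles are siNEG, squares siEWS-FLI where called, and lines exact 95% Poisson intervals. Open triangles are the most siEWS-FLI reads that would stay uncalled at the siNEG local background of the site. XPC and ERCC1 reach 162 and 121 reads, and 6 of the 27 sites have a siEWS-FLI call.

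Among base excision genes, 6 of 8 had a siNEG summit at a gene end (34.9 to 96.8%) and 3 a siEWS-FLI summit there (8.52 to 75.5%). OGG1 encodes the glycosylase that removes oxidised guanine. Its site, chr3:9749673-9750313, had 46 siNEG reads (33.7 to 61.4) and 11 siEWS-FLI reads (5.49 to 19.7), a ratio of 0.239 (0.112 to 0.469), and the summits lay 129 and 121 bases downstream of the start. A stronger OGG1 site, 64 and 6 reads, lay just outside the 1 kb window, 1.82 kb from the gene and 121 bases from TADA3. PARP2, which senses strand breaks and modifies proteins with ADP-ribose, had 43 siNEG reads (31.1 to 57.9) and 17 siEWS-FLI reads (9.90 to 27.2) at chr14:20343079-20343594, a ratio of 0.395 (0.211 to 0.708). In both libraries its summit lay inside RPPH1, the gene of the RNase P RNA (chr14:20343071-20343411), which ends upstream of the PARP2 start, so the site cannot be given to PARP2 alone. PARP2 and OGG1 had ratio intervals below 1, and that of OGG1 also lay below the background ratio of 0.687.

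APEX1, the endonuclease that cuts at abasic positions, had 13 siNEG reads (6.92 to 22.2) and 9 siEWS-FLI reads (4.12 to 17.1), a ratio of 0.692 (0.261 to 1.75). Its summits were 97 bases downstream of the start with siNEG and 233 bases upstream with siEWS-FLI. The overlap of the intervals therefore does not show that 1 binding position was kept. OSGEP lay 181 bases from the siEWS-FLI summit, nearer than APEX1, and 511 bases from the siNEG summit. The site cannot be given to APEX1 alone. XRCC1, the scaffold of single-strand break repair, had 22 siNEG reads (13.8 to 33.3) 109 bases upstream of its start and 127 bases from PINLYP, with no siEWS-FLI call and a limit of 5 reads. PARP1 had 11 siNEG reads 158 bases upstream of its start and UNG, the uracil glycosylase, 7. LIG3, the ligase that works with XRCC1, had no site at an end, and 13 siNEG reads 12.1 kb away. POLB, the gap-filling polymerase, had no siNEG summit within 50 kb and 2 weak siEWS-FLI ones, of 4 and 6 reads, 11.8 and 20.0 kb away.

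**Figure D4:**
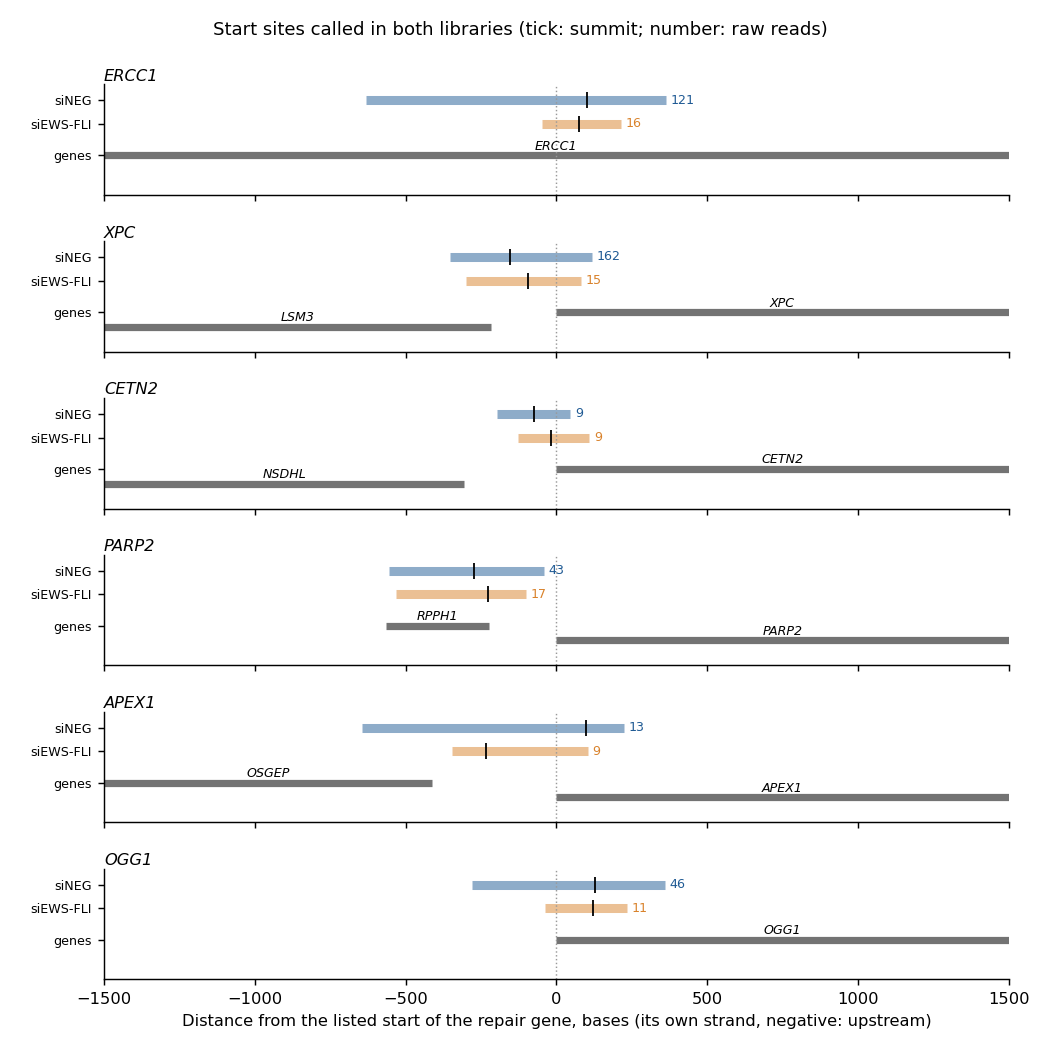
Called intervals (bars), summits (ticks) and raw summit reads (numbers) in each library around the starts of the 6 repair genes whose start site was called in both. The horizontal axis is the distance from the listed start in bases, on the gene's own strand, and grey bars are RefSeq genes, cut at the edge of each panel. The PARP2 summits fall inside RPPH1, the XPC summits between LSM3 and XPC, and the APEX1 summits on either side of its start.

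Among mismatch repair genes, 3 of 6 had a siNEG summit at a gene end (11.8 to 88.2%) and 0 a siEWS-FLI summit there (0 to 45.9%). With so few genes the intervals of the 4 routes overlapped in each library. PMS1 had 11 reads, 131 bases from ORMDL1, PMS2 had 9, 19 bases from AIMP2, and EXO1, the exonuclease that removes the mispaired strand, had 7. All 3 summits were upstream of a start of the repair gene, by 121 to 242 bases. MSH6, which recognises single mismatches, had no summit within 50 kb in either library. MSH3, which recognises loops of unpaired bases, had none at its ends in either library. MLH3, a MutL family member, had none at its ends either, and the strong site in its 50 kb window, 119 and 10 reads with a ratio of 0.0840 (0.0393 to 0.160), was 11 kb away and 152 bases from EIF2B2.

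Translesion genes had siNEG summits at the ends of 4 of 7 (18.4 to 90.1%) and no siEWS-FLI summit there (0 to 41.0%; all genes 12.3%). POLI, a polymerase that inserts opposite damaged bases, had the strongest, 24 reads (15.4 to 35.7) 34 bases downstream of its start. It had no siEWS-FLI call, with a limit of 5 reads at the siNEG local background. REV1, the scaffold of the translesion polymerases, had 13. REV3L, the catalytic subunit of polymerase zeta, had 9, and so did RAD18, the ligase that marks PCNA to call these polymerases in. MAD2L2, the small subunit of polymerase zeta, had 9 reads 180 bases upstream of a listed start but none at an end of its span. POLH and POLK had no site at an end or start, and their windows held siNEG sites of 24 reads at 9.46 kb, 438 bases from MAD2L1BP, and of 6 reads at 44.2 kb. The REV3L window had its strongest site, 58 and 9 reads, 39.7 kb away and 50 bases from SLC60A2.

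In the wide window many sites belonged to neighbours. The strongest siNEG site within 50 kb was within 1 kb of the repair gene itself in 14 of 33 genes (all genes 27.5%) and had that gene as its nearest in 17 (all genes 40.2%). It was called in both libraries in 12 of the 33 (36.4%, 20.4 to 54.9), against 35.4% of all genes, and of the strongest gene-end sites 5 of 25 were, against 30.8%. The count of 12 was 4 when each summit counted for its nearest gene alone and 7 with a reciprocal overlap of 50%. By route the 12 were 4 of 14 nucleotide excision genes, 5 of 7 base excision genes, 2 of 5 mismatch genes and 1 of 7 translesion genes. DDB1 shared 33 and 7 reads at CYB561A3, XRCC1 27 and 5 reads inside the gene, and APEX1 18 and 15 reads at 381 bases from PIP4P1. UNG shared 13 and 12 reads inside USP30, with summits 28.3 kb (siNEG) and 27.6 kb (siEWS-FLI) from UNG. A further overlapping siEWS-FLI interval, of 8 reads at 28.0 kb, was nearer to the siNEG summit. The overlap at UNG therefore does not show 1 binding position. Of these 12 sites those of XPC, PARP2 and ERCC1 lay at a start of the gene and that of XRCC1 inside it. At the edges of the windows, the siNEG summit farthest inside 1 kb was that of ERCC1 (865 bases, 28 reads) and the nearest outside that of OGG1 (1.82 kb, 64 reads). For 50 kb they were RAD18 (46.4 kb, 4 reads) and ERCC4 (51.0 kb, 6 reads).

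The 35 windows held 78 distinct siNEG intervals, 20 of them called in both libraries. Of 28 siEWS-FLI intervals 21 overlapped a siNEG one, and the 7 that did not had 4 to 8 reads and were each 200 bases wide, the narrowest listed. At the 20 shared intervals the siEWS-FLI pileup over that with siNEG had a median of 0.317 (range 0.0840 to 1.25), against 0.294 at 2309 shared intervals of all genes. When each summit counted for its nearest gene alone the repair genes' median was 0.846, but over few shared intervals. Among those dropped were the start sites of XPC and ERCC1 (ratios 0.0926 and 0.132), whose nearest genes were LSM3 and POLR1G. A site of ratio 0.923 in the UNG window was dropped too. Among the 20 the median was 0.170 at the 12 with 20 or more siNEG reads (0.0840 to 1.21). At the 8 below it was 0.833 (0.471 to 1.25), and a choice by siNEG pileup in itself lowers such ratios. The interval of the ratio lay below 1 in 11 of the 20 (all genes 65.2%) and below the background ratio of 0.687 in 10 (all genes 50.2%). At 3 of the 20 the siEWS-FLI pileup was as high or higher. Among all 1440 shared intervals of 20 or more siNEG reads, 3 were higher with siEWS-FLI, and 1 of these lay near a repair gene. At all 8 intervals of at least 40 siNEG reads the ratio was under 0.687, with a median of 0.144, as did 827 of 833 such intervals of all genes, with a median of 0.153. The strong shared sites in the 50 kb windows of the repair genes thus had the ratio found at strong shared sites elsewhere. Those of MLH3, REV3L and XPA and the stronger OGG1 site lay at neighbouring genes. Within 1 kb of an end the only 3 such intervals had a median of 0.239 (range 0.0926 to 0.395), against 0.150 over all genes. A lower depth of the siEWS-FLI library and less binding cannot be told apart.

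**Figure D5:**
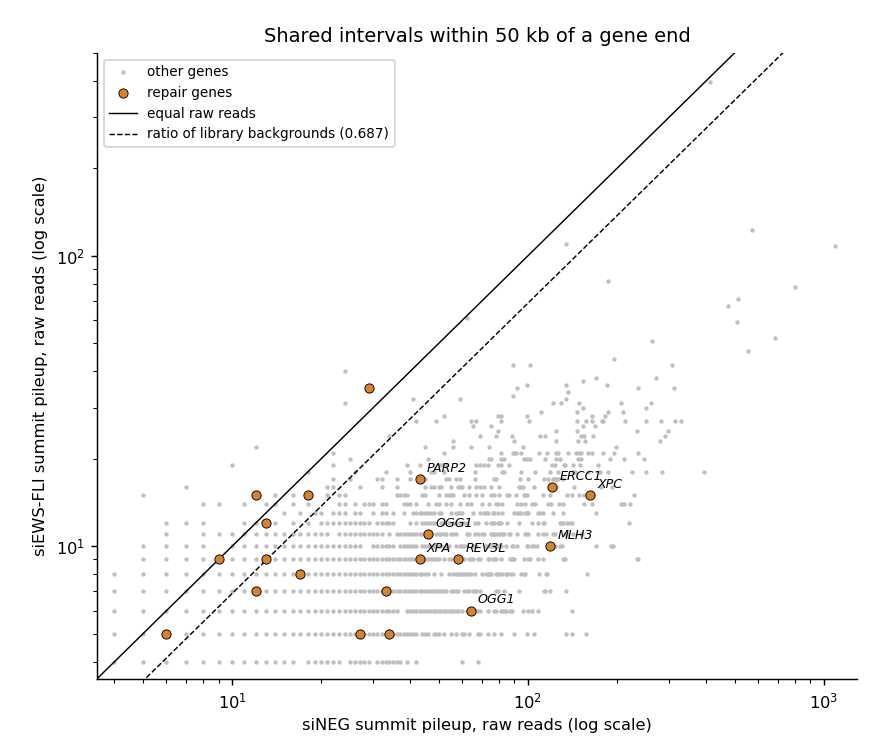
siEWS-FLI against siNEG summit pileup in raw reads (both axes logarithmic) at intervals called in both libraries within 50 kb of a gene end. Grey points are intervals of other genes and orange points the 20 of repair genes, with those of 40 or more siNEG reads named by gene. The solid line is equal raw reads and the dashed line the background ratio of 0.687: XPC, ERCC1 and MLH3 lie far below both.

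Calls with siEWS-FLI followed siNEG strength, as they did over all genes. Of the 25 strongest gene-end sites, 1 of 11 with 4 to 9 siNEG reads was shared (all genes 7.60%) and 1 of 6 with 10 to 19 (all genes 22.5%). With 20 to 49 reads 2 of 7 were (28.6%, 3.67 to 71.0; all genes 53.0%), and the single site above was (all genes 86.9%). At listed starts, 9 repair genes had 20 or more siNEG reads and 4 of these were shared (44.4%, 13.7 to 78.8), against 65.6% of all genes with such a start site. The 4 were XPC, ERCC1, OGG1 and PARP2, and the 5 called with siNEG alone were UVSSA, RAD23B, ERCC4, POLI and XRCC1. From 10 to 49 reads and at listed starts the shares lay under those of all genes, with intervals that reach over them.

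The other genes of these pathways, 56 in a list of further subunits and partners, showed the same excess of siNEG sites. A siNEG summit lay within 1 kb of an end of 40 (71.4%, 57.8 to 82.7; all genes 34.1%). A siEWS-FLI summit lay there in 14 (25%, 14.4 to 38.4), against 12.3% of all genes and 14.3% of the 35 repair genes. The siEWS-FLI share was thus also above that of all genes here. Of these 14, 13 were among the 40 (32.5% of the 40; all genes 32.7%). The median gene-end pileup was 13. NTHL1, a glycosylase for oxidised pyrimidines, had 127 and 14 reads at a site 44 bases from TSC2. GTF2H1, a core subunit of TFIIH, had 99 and 15 reads, 223 bases from HPS5, and PARP3 81 and 12, 192 bases from RRP9. Sites called in both libraries also lay at USP1 (58 and 13 reads), which removes ubiquitin from PCNA, LIG1 (52 and 9), the ligase of replication, and POLD1 (26 and 7), the catalytic subunit of polymerase delta. Weaker ones were at PARG (17 and 5), RBX1 (16 and 11), APTX (13 and 6), SPRTN (13 and 7) and APEX2 (7 and 5). SMUG1 (56 reads), FEN1 (50) and GTF2H3 (40) were called with siNEG alone. Another gene's end lay within 1 kb of the summit in 23 of the 40, against 9 of the 25 repair genes above and 35.6% of all genes.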

How the data were processed

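CUT&Tag was run on 1 TC32 library per group (siEWS-FLI and siNEG), and the labels' protocols give 14 plus 20 PCR cycles, 34 altogether. The submitters' processing notes name MACS2 2.2.9.1, Bowtie2 2.4.5, Trim Galore 0.6.6 and the build hg38, but no roles. Antibody, control library, duplicate handling and read totals were not given in the sources used here. Peaks were deposited per library. The deposited columns hold the interval, a score (not used), the fold enrichment, a ratio over local background, and, for each summit, a −log10 p-value with its −log10 q-value, all as the authors' caller gave them. The smallest −log10 q was 1.32 with siNEG and 1.33 with siEWS-FLI.

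Lines sharing an interval were merged, keeping the highest −log10 q. The pileup was solved jointly from the fold (1 read added to pileup and to background) and from the Poisson upper tail. A whole number fitted 100% of lines within 0.001 in log10 p, and the solver was checked on simulated data. Intervals were shared when they overlapped by 1 base or more. Chromosomes 1 to 22, X and Y were used. RefSeq (GRCh38.p14, with hg38 coordinates on its primary chromosomes) gave gene ends and starts. The gene table holds no exons, so sites are placed by gene ends, starts and spans only. With 1 library per group no test was made. The repair genes, the other pathway genes, the marker lists and the motifs were chosen with earlier results of these data known. Named were the members, and of the other pathway genes the 4 strongest gene-end sites, those called in both libraries and, chosen after their values were seen, 3 further siNEG sites. Some items this rule names are not reported here. Across 7 results, 45 planned and 7 added alternatives were run with Python 3.11.15, NumPy 2.4.6, pandas 2.3.3 and SciPy 1.17.1.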

Additional observations from a re-analysis of the deposited data

How the results depend on the processing

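Of 52 alternatives 47 left the result within 1.5 times its value, or for the medians within their interval, and 5 did not. With each summit given to its nearest protein-coding gene alone, 6 repair genes in place of 17 had a siEWS-FLI summit within 50 kb. Under the same rule 4 in place of 12 had a strongest site called in both libraries, and the median pileup ratio was 0.846 in place of 0.317. That median rests on few shared intervals and leaves out those at the XPC and ERCC1 starts. With a reciprocal overlap of 50% the strongest site was shared in 7. With the siNEG list cut to as many intervals as the siEWS-FLI list, a choice made after seeing the data, 15 in place of 25 had a siNEG summit within 1 kb. The median ratio was 0.462 with pileups over each library's background and 0.630 from the deposited fold. Within 1 kb of an end the siEWS-FLI count was 5 with a stricter q, wider intervals only, windows of 500 bases and 2 kb, and unmerged lines. No replicate could be left out with 1 library per group. No paired analysis was possible because each group has 1 library. Depth limits weak sites. At the siNEG local background the limit for a siEWS-FLI call was 3 to 8 reads at the 21 siNEG-only start sites. Of these, 16 had under 20 siNEG reads.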

Other observations

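Among the shared intervals, 2 have a siNEG summit inside a small RNA gene. The ERCC1 window holds a site of 6 siNEG reads with its summit in TRU-TCA1-1, the selenocysteine tRNA gene, 27.1 kb from ERCC1. The overlapping siEWS-FLI interval had 5 reads (ratio 0.833, 0.201 to 3.28). Its summit lay outside the tRNA gene, 27.3 kb from ERCC1. The PARP2 site in RPPH1 had the ratio 0.395. Both values are descriptions of single sites.

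The 7 siEWS-FLI intervals in the windows with no siNEG interval were at ERCC2 (4 reads, 49.1 kb away), DDB1 (6, 7.06 kb), POLH (4, 33.0 kb), XRCC1 (8, 39.5 kb), OGG1 (4, 27.0 kb) and POLB (4 and 6). None was within 1 kb of an end of the repair gene.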
